A study of Mus musculus with 12 samples.

Results

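The enzymes of glycolysis, the transporters that bring glucose in and take lactate out, the pyruvate dehydrogenase complex with its kinases, and a small set of hypoxia-responsive genes were followed in mouse embryonic stem cells (ESC) of 2 genotypes. The set held 34 genes, named by symbol, of 17624 genes tested on the array. Each was read from the probe sets annotated with its symbol alone, and the brightest of these stood for the gene. Eno1 had no such probe set and was read from the brightest of 3 that it shares with pseudogenes. All 34 passed the filter on dim probe sets.

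Gene expression was measured on 12 Affymetrix Mouse Gene 1.0 ST arrays, whose probe sets summarise several exons of a gene. There were 4 groups of 3 arrays. Mixed Bmpr1a-/- and mixed wild-type ESC came from 1 kind of culture, in which a GFP-labelled Bmpr1a-/- line and an unlabelled wild-type line grew together in equal proportions for 3 days in N2B27, a serum-free medium, before they were sorted on GFP. Separate Bmpr1a-/- and separate wild-type ESC were grown in N2B27 for 3 days with no cells of the other line. Bmpr1a encodes a receptor for bone morphogenetic proteins. The sources used here do not give the strain, the number of clones behind each line, or whether separately grown cells were also sorted. Genotype, cell line and GFP label went together on every array and cannot be told apart.

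Glycolysis turns glucose into pyruvate in a fixed chain of steps, and most steps have several isozymes encoded by different genes. Lactate dehydrogenase then turns pyruvate into lactate, which leaves the cell through monocarboxylate transporters, or the pyruvate dehydrogenase complex feeds pyruvate to the mitochondria. Pyruvate dehydrogenase kinases switch that complex off. In low oxygen the prolyl hydroxylases encoded by the Egln genes no longer mark hypoxia-inducible factor (HIF) for destruction, and HIF raises many glycolytic genes. Pluripotent cells are known for a high rate of glycolysis, and its balance with respiration differs between naive and primed pluripotent states.

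The promoters of 2 pairs of genes are shown as examples, chosen after the values and the letter matches were known. In each pair one gene was called higher and the other lower in mixed Bmpr1a-/- than in mixed wild-type cells, and the call of Ldha held under 11 of 20 other settings. Ldhb and Ldha encode the subunits of lactate dehydrogenase, and Pdk1 and Pdk2 encode pyruvate dehydrogenase kinases. The sequences are the 250 bases before the most upstream start in RefSeq's promoter table for that gene (GRCm38.p6), which for Ldha and Pdk1 is not the outer end of the gene in RefSeq's gene table. They run 5′ to 3′ on the strand of the gene, at chr7:46845554-46845803 (plus strand) for Ldha, chr6:142507958-142508207 (minus strand) for Ldhb, chr2:71872974-71873223 (plus strand) for Pdk1 and chr11:95041372-95041621 (minus strand) for Pdk2. Capitals mark ACGTG, a form of the core of the HIF response element, read on both strands. The core can also be GCGTG, which was not searched or marked.
Ldha: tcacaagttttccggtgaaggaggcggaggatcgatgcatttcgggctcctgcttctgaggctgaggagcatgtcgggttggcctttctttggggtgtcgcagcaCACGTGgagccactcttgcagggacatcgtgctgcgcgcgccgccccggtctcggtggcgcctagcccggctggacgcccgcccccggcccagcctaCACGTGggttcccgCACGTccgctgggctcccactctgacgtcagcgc
Ldhb: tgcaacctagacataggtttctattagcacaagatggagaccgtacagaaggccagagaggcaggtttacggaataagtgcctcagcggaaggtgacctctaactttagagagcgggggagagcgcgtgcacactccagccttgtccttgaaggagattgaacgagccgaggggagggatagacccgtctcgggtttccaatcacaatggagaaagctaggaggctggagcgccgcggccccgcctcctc
Pdk1: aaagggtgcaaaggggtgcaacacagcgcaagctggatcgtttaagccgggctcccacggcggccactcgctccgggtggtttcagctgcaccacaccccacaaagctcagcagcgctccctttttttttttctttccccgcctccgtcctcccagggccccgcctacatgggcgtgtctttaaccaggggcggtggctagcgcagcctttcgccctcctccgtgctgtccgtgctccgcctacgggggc
Pdk2: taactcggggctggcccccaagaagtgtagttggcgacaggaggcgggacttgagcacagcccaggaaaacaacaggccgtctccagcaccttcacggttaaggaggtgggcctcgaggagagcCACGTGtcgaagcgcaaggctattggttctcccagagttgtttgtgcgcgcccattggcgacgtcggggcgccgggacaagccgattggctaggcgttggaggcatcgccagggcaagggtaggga
The Ldha window held 3 capital stretches, 2 of them the E-box CACGTG, which contains ACGTG on both strands. The Pdk2 window held 1 E-box, and the windows of Ldhb and Pdk1 held no ACGTG. Neither did those of Eno2 and Eno3, which were also called in opposite directions. The printed windows of Ldhb and Pdk1 do contain GCGTG. A promoter was listed for 33 of the 34 genes, all but Slc2a3. ACGTG on either strand was present in 16 of the 33 windows (48.5%) and in 16.5% of the 27025 windows of the whole table. CACGTG was present in 5 of the 33 (15.2%) and in 6.04% of all windows. Of the genes that were higher in mixed Bmpr1a-/- than in mixed wild-type cells 0 of 4 had ACGTG in the window, and of those that were lower 5 of 7 had it. Of those called neither way 11 of 22 (50%) had it. These are matches of letters in a short window and were not tested. They leave out GCGTG, so a window without ACGTG can still hold a HIF core.

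Median signal lay between 51.6 and 54.3 on the 12 arrays. Values below are signal on the linear scale for single arrays, in the order of replicates 1, 2 and 3, and differences are on the log2 scale with the standard error (SE) of the fit. Genotype differences are Bmpr1a-/- minus wild-type, and changes with co-culture are mixed minus separate. A gene passed at an adjusted p under 0.05 (limma, Benjamini-Hochberg over all 17624 genes). The labels do not say whether replicates were separate cultures, so p-values measure the spread between these samples. In bulk RNA, fewer cells that express a gene and less of its RNA per cell cannot be told apart. Bmpr1a itself was lower in Bmpr1a-/- cells, with a difference of -0.34 (adjusted p = 0.0091) in separate and of -0.50 (adjusted p = 0.00044) in mixed culture. Its signal stayed between 362 and 462 on the Bmpr1a-/- arrays, and the position of its probes relative to the deletion was not known here. Pou5f1, a defining transcription factor of pluripotent cells, gave a signal of 1679 to 3311 on all arrays, and Sox2 one of 459 to 979. The summed signal of 11 pluripotency genes was 10642 to 12373 in Bmpr1a-/- cells and 6733 to 7956 in wild-type cells. Dppa5a and Tdgf1 stood far apart, with means of 2665 and 829 in mixed Bmpr1a-/- against 344 and 155 in mixed wild-type cells. Of the 11 genes 6 were higher and 1 lower in separate Bmpr1a-/- cells (63.6%, against 11.2% of all genes). In mixed culture 5 were higher, 0 were lower and 6 did not pass (45.5%, against 16.5%). The part of these genes in the differences between genotypes below was not tested.

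In mixed culture 5 of the 34 genes were higher in Bmpr1a-/- cells and 7 were lower (35.3%, against 16.5% of all genes tested, of which 6.35% were higher and 10.1% lower). At an unadjusted p under 0.05 there were 21 of the 34, a larger share than the 4958 of all 17624 genes (28.1%). The higher genes were Slc2a3, Pfkp, Eno2, Ldhb and Pdk1, and the lower genes were Slc2a1, Hk2, Eno3, Ldha, Slc16a3, Dlat and Pdk2. In 4 pairs that serve the same step (Slc2a3 and Slc2a1, Eno2 and Eno3, Ldhb and Ldha, Pdk1 and Pdk2) the first gene was called higher and the other lower. The 3-array ranges of the genotypes did not overlap for 23 genes (67.6%, against 32.7% of all genes). In separate culture 6 genes were lower and 0 were higher (17.6%, against 11.2%, of which 6.3% lower and 4.94% higher): Slc2a1, Pfkm, Aldoc, Eno3, Dlat and Pdk2. There the ranges were apart for 8 genes (23.5%, against 24.5%). The median difference of the 34 genes was -0.10 in separate and -0.02 in mixed culture, and that of all genes was -0.02 in both. The median size of the difference in mixed culture, whatever its sign, was 0.28 for the 34 genes and 0.11 for all genes. The share that passed also moved with signal. Among the 12100 genes at least as bright as the dimmest of the 34, 22.2% passed in mixed and 15.4% in separate culture. The 34 genes were chosen with earlier results of these data known, so their shares here and below are not independent of those results.

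Few of these genes passed for a change with co-culture. In Bmpr1a-/- cells 2 of 34 rose with co-culture and 0 fell (5.88%, against 1.58% of all genes and 2.11% of the 12100 brighter ones): Pfkp, by 0.60 (SE 0.12, adjusted p = 0.033), and Eno2, by 0.72 (SE 0.15, adjusted p = 0.039). At an unadjusted p under 0.05 there were 10 of the 34 (29.4%, against 14.9% of all genes). In wild-type cells 0 of 34 passed in limma, and neither did any other gene (0%). At an unadjusted p under 0.05 there was 1 of the 34, and 516 of all genes (2.93%). The test of the difference between the co-culture changes passed for 0 of 34 (against 0.687% of all genes). At an unadjusted p under 0.05 it did for 5 of 34, and for 1995 of all 17624 genes (11.3%). The ranges of mixed and separate arrays were apart for 10 genes in Bmpr1a-/- cells (29.4%, against 18%) and for 3 in wild-type cells (8.82%, against 7%). Replicate numbers paired the arrays of the mixed and separate Bmpr1a-/- groups, and those of the mixed groups of both genotypes. With the replicate as a block, 5 genes rose with co-culture in Bmpr1a-/- cells, with Slc2a3, Hk1 and Bnip3 added. Slc2a3 and Eno2 then also passed the test of the difference between co-culture changes (2 of 34 in place of 0). That test includes the separate wild-type arrays, which the numbers paired in only some replicates with the mixed wild-type or separate Bmpr1a-/- arrays. In the genotype comparison of mixed cultures 19 passed with the block, with Hk1, Pfkm, Aldoa, Aldoc, Pgk1, Vegfa and Egln1 added to the 12.

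**Figure D1:**
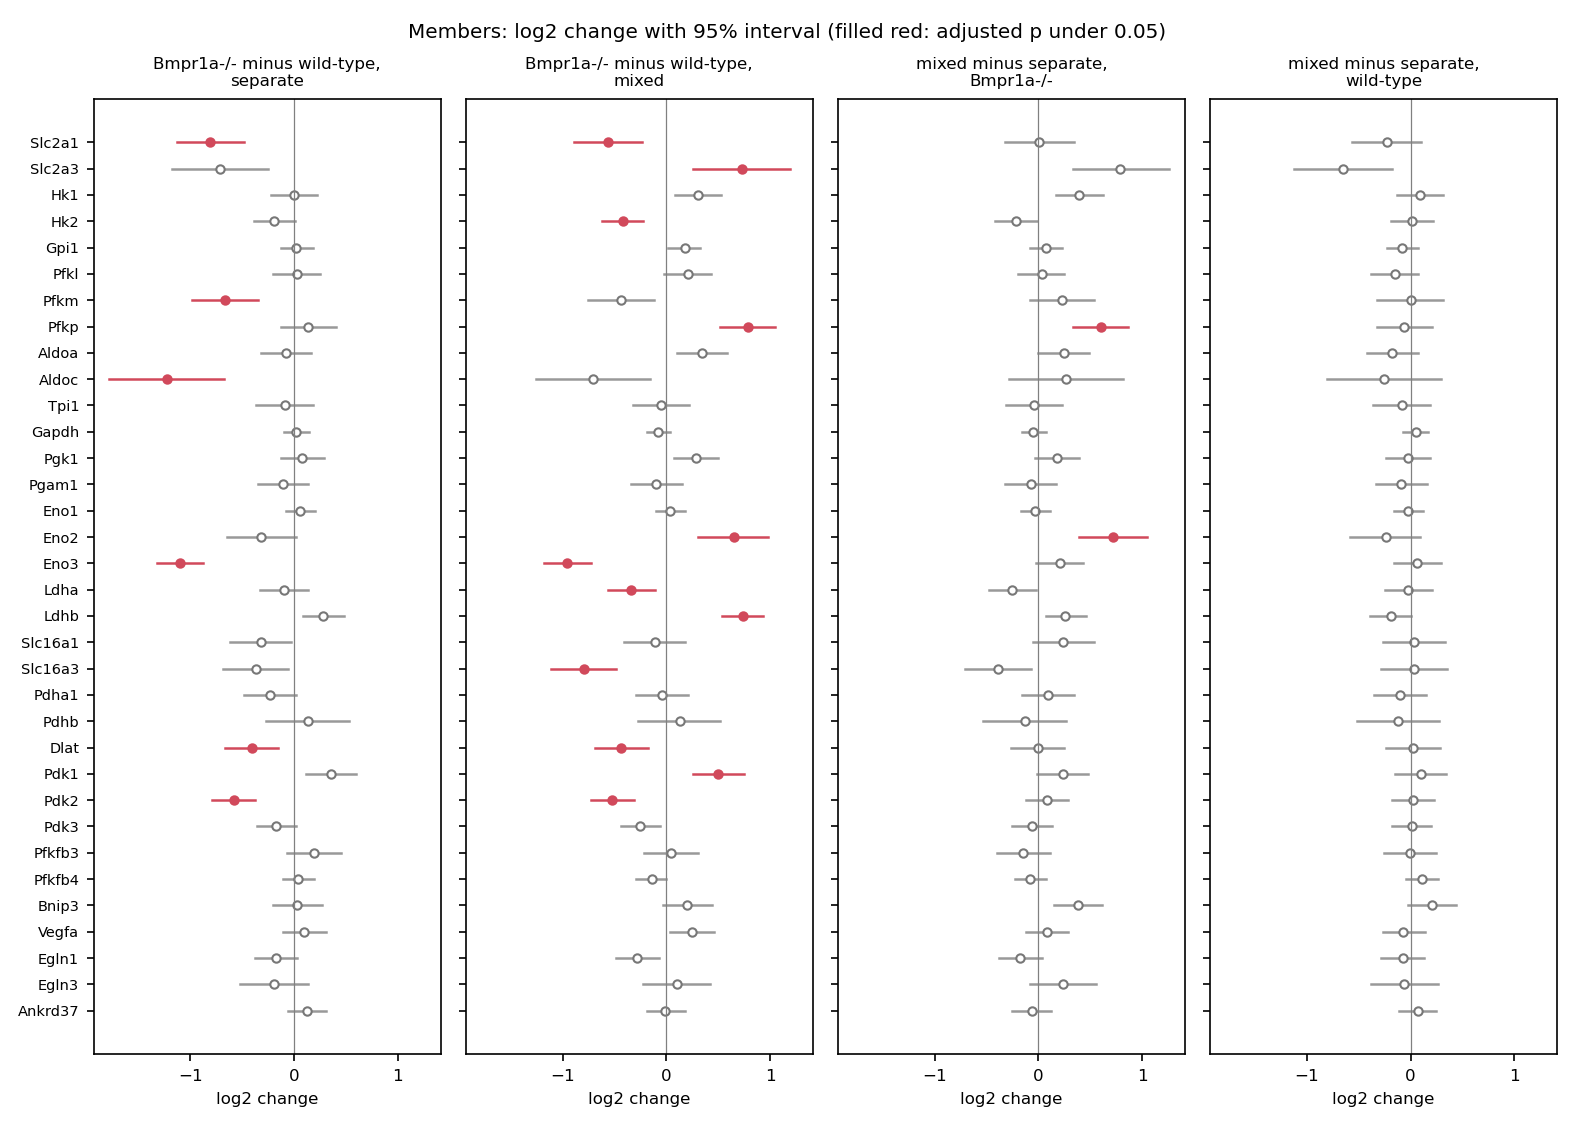
Log2 change of each of the 34 genes (rows) in 4 comparisons (columns), with points for the fitted change and bars for its 95% interval. Filled red points passed at an adjusted p under 0.05: 6 genes between genotypes in separate culture, 12 in mixed culture, 2 with co-culture in Bmpr1a-/- cells and 0 in wild-type cells.

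Glucose enters ESC through the transporters GLUT1, encoded by Slc2a1, and GLUT3, encoded by Slc2a3, which has the higher affinity for glucose. Slc2a1 gave 4891, 5810 and 4291 in separate and 4571, 4239 and 3876 in mixed wild-type cells. Bmpr1a-/- cells gave 3605, 2680 and 2367 in separate and 3314, 2698 and 2632 in mixed culture. All 6 Bmpr1a-/- arrays lay below all 6 wild-type arrays. Slc2a1 was lower in Bmpr1a-/- cells, with a difference of -0.81 (SE 0.15, adjusted p = 0.0051) in separate and of -0.56 (SE 0.15, adjusted p = 0.023) in mixed culture. The call in mixed culture was lost when mixed wild-type replicate 1 or 2 was left out, or else mixed Bmpr1a-/- replicate 2 or 3 (adjusted p up to 0.089).

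Slc2a3 had another order. Its signal was 2076, 3167 and 2829 in separate and 1414, 1735 and 1964 in mixed wild-type cells. In Bmpr1a-/- cells it was 1869, 1083 and 2080 in separate and 2677, 2804 and 2911 in mixed culture. Mixed Bmpr1a-/- cells were thus above both mixed wild-type and separate Bmpr1a-/- cells on every array, while the separate groups overlapped by a single pair of arrays. The genotype difference was 0.73 (SE 0.22, adjusted p = 0.035) in mixed culture and -0.71 (SE 0.22, adjusted p = 0.051) in separate culture. The change with co-culture was 0.79 (SE 0.22, adjusted p = 0.09) in Bmpr1a-/- and -0.65 (SE 0.22, adjusted p = 1) in wild-type cells, where the ranges also did not overlap. This was the smallest p of the 34 in wild-type cells (unadjusted p = 0.01 in limma), and that of Ldhb came next (unadjusted p = 0.055 in limma). The difference of these changes was 1.44 (SE 0.30, 95% interval 0.78 to 2.10, adjusted p = 0.053), also the smallest p of the 34. The call in mixed culture was lost without any single array of the mixed groups other than mixed wild-type replicate 3, with no filter on low signal and with a trended variance (adjusted p up to 0.13).

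Hexokinases trap glucose in the cell as glucose 6-phosphate. Hk2, the inducible isozyme, gave 542, 677 and 626 in separate and 595, 605 and 657 in mixed wild-type cells. It gave 571, 477 and 568 in separate and 475, 442 and 470 in mixed Bmpr1a-/- cells. The mixed Bmpr1a-/- arrays were the lowest group and did not overlap with any other. In mixed culture the genotype difference was -0.42 (SE 0.09, adjusted p = 0.0083), and in separate culture it was -0.19 (SE 0.09, adjusted p = 0.24). For Hk1, the constitutive isozyme, the mixed Bmpr1a-/- arrays gave 132, 144 and 160 and all others 99 to 135. The difference between genotypes in mixed culture was 0.31 (SE 0.10, adjusted p = 0.062) and that between cultures in Bmpr1a-/- cells was 0.39 (SE 0.10, adjusted p = 0.079). Gpi1, the next enzyme of the chain, differed by 0.18 (SE 0.07, adjusted p = 0.12) between genotypes in mixed culture and passed in no comparison.

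Phosphofructokinase commits the sugar to glycolysis and is a tetramer of liver, muscle and platelet subunits. Pfkp, the platelet type, gave 280, 230 and 230 in separate and 254, 222 and 234 in mixed wild-type cells. Bmpr1a-/- cells gave 277, 223 and 318 in separate and 414, 436 and 374 in mixed culture. The mixed Bmpr1a-/- arrays stood above the other 9, which ran from 222 to 318. Bmpr1a-/- minus wild-type was 0.79 (SE 0.12, adjusted p = 0.00084) in mixed and 0.13 (SE 0.12, adjusted p = 0.58) in separate culture. The rise with co-culture in Bmpr1a-/- cells (0.60) compares with -0.06 (SE 0.12, adjusted p = 1) in wild-type cells, and the difference of these changes was 0.65 (SE 0.17, adjusted p = 0.13). These comparisons share the mixed Bmpr1a-/- arrays. The call for the rise was lost without any single mixed Bmpr1a-/- array and without separate Bmpr1a-/- replicate 1 or 2, among others (adjusted p up to 0.14).

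Pfkm, the muscle type, went the other way between genotypes. Its signal was 676, 646 and 629 in separate and 665, 605 and 682 in mixed wild-type cells. Separate Bmpr1a-/- cells gave 499, 305 and 452 and mixed Bmpr1a-/- cells 491, 431 and 524. No Bmpr1a-/- array reached the lowest wild-type array. Bmpr1a-/- cells were lower, with -0.67 (SE 0.15, adjusted p = 0.011) in separate culture and -0.44 (SE 0.15, adjusted p = 0.058) in mixed culture. Pfkl, the liver type, passed in no comparison and lay between 736 and 991 on all arrays.

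Aldolase splits the sugar into 3-carbon units. Aldoc, the isozyme best known from brain, gave 640, 661 and 431 in separate and 587, 431 and 420 in mixed wild-type cells. It gave 346, 179 and 227 in separate and 393, 226 and 275 in mixed Bmpr1a-/- cells. All Bmpr1a-/- arrays were below all wild-type arrays, with a wide spread within each group. The genotypes differed by -1.23 (SE 0.25, adjusted p = 0.0083) in separate and by -0.71 (SE 0.25, adjusted p = 0.078) in mixed culture. Aldoa, the widely expressed isozyme, differed by -0.08 (SE 0.11, adjusted p = 0.75) in separate and by 0.34 (SE 0.11, adjusted p = 0.055) in mixed culture.

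The middle of the chain, from triose phosphate to 2-phosphoglycerate, held no gene that passed in any comparison. These are Tpi1, Gapdh, Pgk1 and Pgam1, which encode triose phosphate isomerase, glyceraldehyde 3-phosphate dehydrogenase, phosphoglycerate kinase and phosphoglycerate mutase. Between genotypes in mixed culture they differed by -0.05, -0.08, 0.29 and -0.10 (SE 0.05 to 0.13, adjusted p from 0.065 to 0.89). Pgk1 had the largest of these values, and its mixed Bmpr1a-/- arrays (4020, 4143 and 4414) lay above the mixed wild-type arrays (3227, 3682 and 3406). Gapdh stayed between 7469 and 8037 on all 12 arrays. Pgk1 and Pgam1 were each represented by 3 probe sets with nearly the same values, and many probe sets name Gapdh together with pseudogenes, so these genes may share signal with near-identical copies.

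Enolase makes phosphoenolpyruvate and has 3 isozymes in this set. Eno3, the muscle enolase, gave 204, 213 and 209 in separate and 215, 206 and 233 in mixed wild-type cells. Its signal was 116, 83.1 and 95.5 in separate and 111, 107 and 119 in mixed Bmpr1a-/- cells. The genotypes were far apart on every array. Eno3 was lower in Bmpr1a-/- cells, with a difference of -1.10 (SE 0.10, adjusted p = 7.9e-05) in separate and of -0.96 (SE 0.10, adjusted p = 7.4e-05) in mixed culture, the smallest p-values of the 34 genes in both comparisons.

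Eno2, the neuronal enolase, gave 102, 107 and 90 in separate and 77.9, 74.1 and 103 in mixed wild-type cells. It gave 87.6, 62.8 and 92.7 in separate and 124, 123 and 150 in mixed Bmpr1a-/- cells. As for Pfkp, the mixed Bmpr1a-/- arrays were above all others. Bmpr1a-/- minus wild-type was 0.65 (SE 0.15, adjusted p = 0.012) in mixed and -0.32 (SE 0.15, adjusted p = 0.23) in separate culture. Against the rise of 0.72 with co-culture in Bmpr1a-/- cells, the change in wild-type cells was -0.24 (SE 0.15, adjusted p = 1), and the difference of these changes was 0.96 (SE 0.22, adjusted p = 0.071). The call for the rise was lost under the same omitted arrays as that of Pfkp (adjusted p up to 0.16), and the genotype call in mixed culture was lost when mixed wild-type replicate 2 was left out, or else mixed Bmpr1a-/- replicate 3 (up to 0.056). Eno1, the widely expressed enolase, differed by 0.06 (SE 0.07) and 0.04 (SE 0.07) between genotypes and lay between 5859 and 6679, as read from a probe set shared with pseudogenes.

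Lactate dehydrogenase is a tetramer of subunits encoded by Ldha, the form that favours lactate formation, and Ldhb, the form that favours lactate use. Ldhb gave 247, 255 and 202 in separate and 209, 200 and 205 in mixed wild-type cells. Bmpr1a-/- cells gave 299, 275 and 279 in separate and 370, 334 and 320 in mixed culture. On this probe set the 4 groups were in the order mixed wild-type, separate wild-type, separate Bmpr1a-/- and mixed Bmpr1a-/-. Among these neighbours only the wild-type groups overlapped. Bmpr1a-/- minus wild-type was 0.74 (SE 0.09, adjusted p = 0.00018) in mixed and 0.28 (SE 0.09, adjusted p = 0.065) in separate culture. The second probe set of Ldhb gave 0.67 (SE 0.11, adjusted p = 0.0011) in mixed and 0.32 (SE 0.11, adjusted p = 0.079) in separate culture. On it the Bmpr1a-/- groups also overlapped (269, 241 and 221 in separate and 320, 304 and 260 in mixed culture). The separate genotypes were apart there by a narrow margin (221 against 220).

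Ldha gave 4945, 5369 and 4655 in separate and 5318, 4841 and 4617 in mixed wild-type cells. In Bmpr1a-/- cells its signal was 5193, 4228 and 4558 in separate and 4522, 3597 and 3639 in mixed culture. The mixed Bmpr1a-/- arrays were below the mixed wild-type arrays, by a narrow margin for replicate 1. The genotypes differed by -0.34 (SE 0.11, adjusted p = 0.046) in mixed and by -0.10 (SE 0.11, adjusted p = 0.64) in separate culture. The call in mixed culture held under 11 of 20 other settings and was lost without any single mixed wild-type array, among others (adjusted p up to 0.18). The Ldha and Ldhb promoters are those printed above, with 3 stretches that match ACGTG and none.

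Lactate leaves the cell through MCT1, encoded by Slc16a1, and MCT4, encoded by Slc16a3, the exporter typical of highly glycolytic cells. Slc16a3 gave 1404, 1738 and 1488 in separate and 1679, 1605 and 1442 in mixed wild-type cells. It gave 1483, 963 and 1173 in separate and 1062, 814 and 864 in mixed Bmpr1a-/- cells. Mixed Bmpr1a-/- cells were below every wild-type array, while separate Bmpr1a-/- cells overlapped with wild-type cells through replicate 1. The genotypes differed by -0.79 (SE 0.15, adjusted p = 0.0025) in mixed and by -0.37 (SE 0.15, adjusted p = 0.13) in separate culture. Slc16a1 differed by -0.11 (SE 0.14, adjusted p = 0.7) and -0.32 (SE 0.14, adjusted p = 0.16). Its separate Bmpr1a-/- replicate 2 gave 701 where all other arrays gave 1073 to 1277.

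The pyruvate dehydrogenase complex was represented by Pdha1 and Pdhb, for the subunits of the E1 enzyme, and Dlat, for the E2 core. Dlat gave 566, 538 and 433 in separate and 534, 491 and 521 in mixed wild-type cells. Bmpr1a-/- cells gave 434, 342 and 374 in separate and 420, 331 and 396 in mixed culture. Mixed groups did not overlap, and separate groups did at a single pair of arrays (433 and 434). The genotypes differed by -0.44 (SE 0.12, adjusted p = 0.024) in mixed and by -0.41 (SE 0.12, adjusted p = 0.041) in separate culture. The call in separate culture held under 10 of 20 other settings and was lost, among others, without separate wild-type replicate 1 or 2 or separate Bmpr1a-/- replicate 2 or 3 (adjusted p up to 0.17). That in mixed culture was lost when mixed wild-type replicate 1 or 3 was left out, or else mixed Bmpr1a-/- replicate 2 (up to 0.11). Pdha1 and Pdhb differed by -0.23 to 0.13 between genotypes and passed in neither culture.

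Pyruvate dehydrogenase kinases shut the complex off. Pdk1, the HIF-responsive kinase, gave 290, 235 and 241 in separate and 314, 257 and 249 in mixed wild-type cells. Its signal was 302, 305 and 377 in separate and 393, 380 and 380 in mixed Bmpr1a-/- cells. Genotypes were apart within each kind of culture. The difference for Pdk1 was 0.50 (SE 0.11, adjusted p = 0.0087) in mixed and 0.36 (SE 0.11, adjusted p = 0.062) in separate culture. Pdk2, a widely expressed kinase, gave 84.7, 98.8 and 95.4 in separate and 86.5, 99.8 and 96.6 in mixed wild-type cells. It gave 65.8, 63.7 and 56.6 in separate and 63.6, 60.6 and 73.4 in mixed Bmpr1a-/- cells, below all wild-type arrays. Pdk2 was lower in Bmpr1a-/- cells, with a difference of -0.58 (SE 0.10, adjusted p = 0.0023) in separate and of -0.52 (SE 0.10, adjusted p = 0.0024) in mixed culture. Pdk3 differed by -0.17 (SE 0.09, adjusted p = 0.25) and -0.25 (SE 0.09, adjusted p = 0.076).

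**Figure D2:**
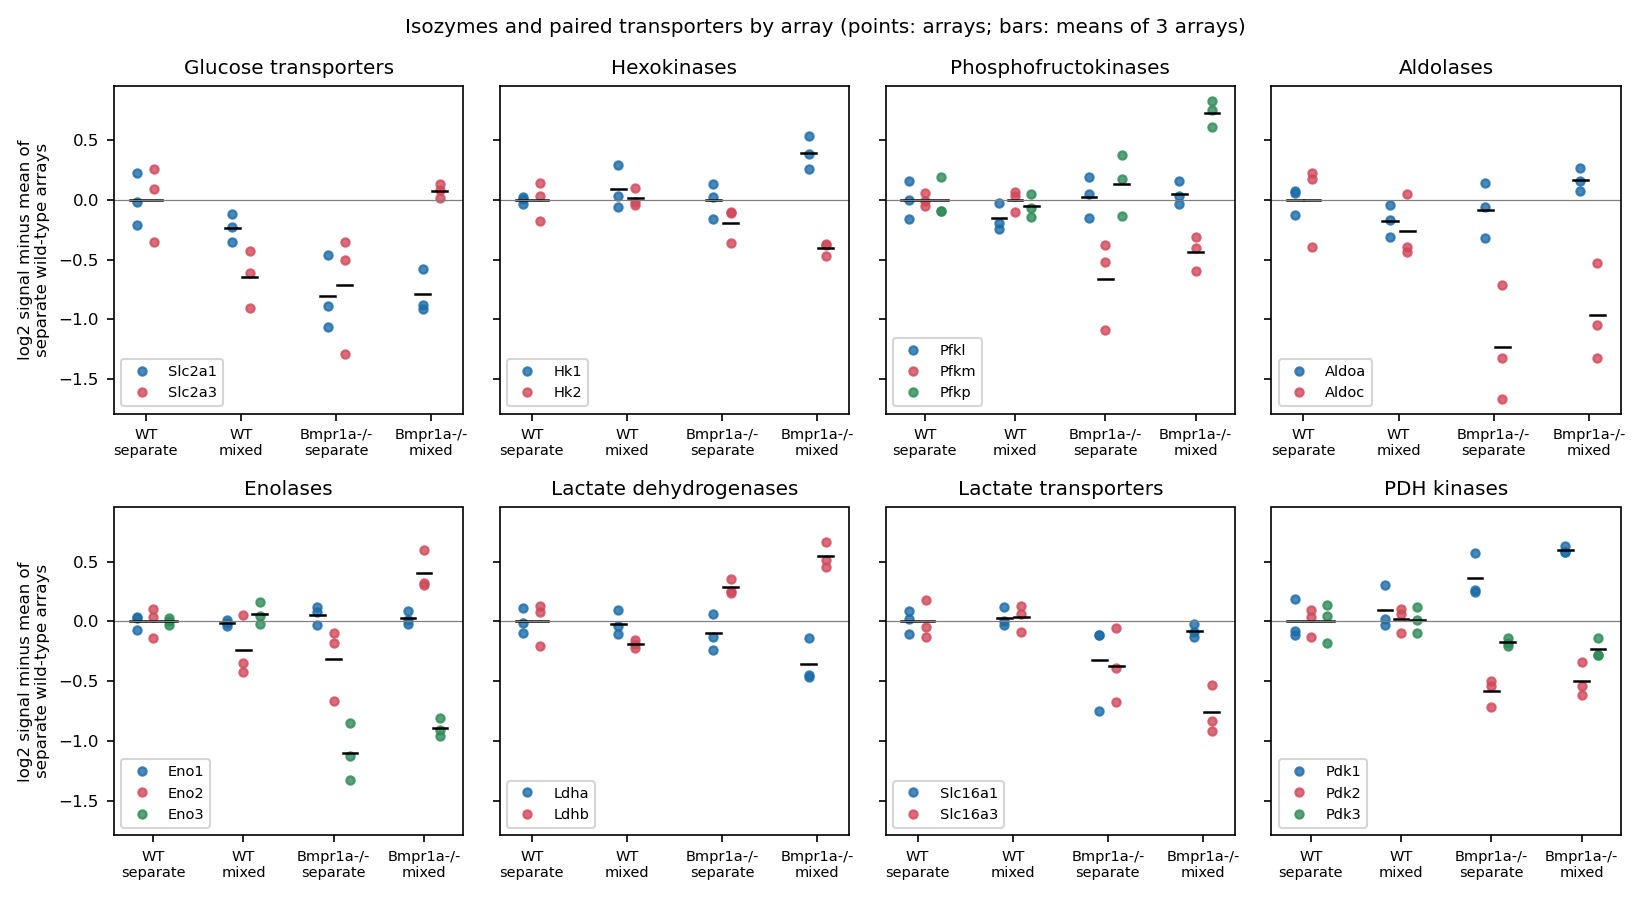
Log2 signal of isozymes and paired transporters on each array, less the mean of the separate wild-type arrays of that gene, so that levels of different genes are not compared. Points are arrays and bars the means of 3 arrays, and in mixed Bmpr1a-/- cells Pfkp, Eno2, Ldhb and Pdk1 lie above 0 on every array while Pfkm, Eno3, Ldha and Pdk2 lie below it.

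Differences between isozymes were also computed on each array, as the log2 ratio of 2 genes, which removes what an array does to both. There were 14 pairs, all those of the set that share a step of glucose uptake, glycolysis, lactate formation or export, or are pyruvate dehydrogenase kinases, with the direction of each ratio set after values were known. In mixed culture the genotype ranges were apart for 13 of 14 pairs, all but Pdk2 over Pdk3. For single genes the share apart was 32.7% over all genes, and no such share was computed over other pairs. Ldhb over Ldha was 1.07 higher in Bmpr1a-/- cells, with an SD of 0.09 in each genotype (n = 3). Eno2 over Eno3 was 1.61 higher, Slc2a3 over Slc2a1 1.29, Pfkp over Pfkm 1.22, Pdk1 over Pdk2 1.02 and Hk1 over Hk2 0.73. Aldoc over Aldoa differed by -1.05 and Slc16a3 over Slc16a1 by -0.68. In separate culture 10 of 14 pairs were apart, among them Pdk1 over Pdk2 (0.94), Pfkp over Pfkm (0.80) and Ldhb over Ldha (0.38). With co-culture 7 of 14 pairs were apart in Bmpr1a-/- cells, Ldhb over Ldha by 0.51 (SD 0.09 in each group) among them, and 0 of 14 in wild-type cells, where that ratio differed by -0.17. A two-sided exact permutation test of 3 against 3 arrays cannot go below p = 0.10, which each pair with ranges apart reached. The ratios are built from the genes already described and add no independent evidence.

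Across cultures the genotype difference had the same sign for 27 of the 34 genes (79.4%, against 66.7% of all genes tested), over arrays that the comparisons do not share. Slc2a1, Eno3, Dlat and Pdk2 were lower in both, which is 4 of the 6 genes called in separate and 4 of the 12 called in mixed culture (66.7% and 33.3%). Over all genes, those called in both were 58.4% of those called in separate and 39.8% of those called in mixed culture. None of the 34 was called in opposite directions. The 8 genes called in mixed culture only were Slc2a3, Hk2, Pfkp, Eno2, Ldha, Ldhb, Slc16a3 and Pdk1. The test of whether the genotype difference itself changed with culture is that of the difference between co-culture changes. It passed for none of them (adjusted p from 0.053 for Slc2a3 to 0.86 for Pdk1), and with the replicate as a block it passed for Slc2a3 and Eno2.

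**Figure D3:**
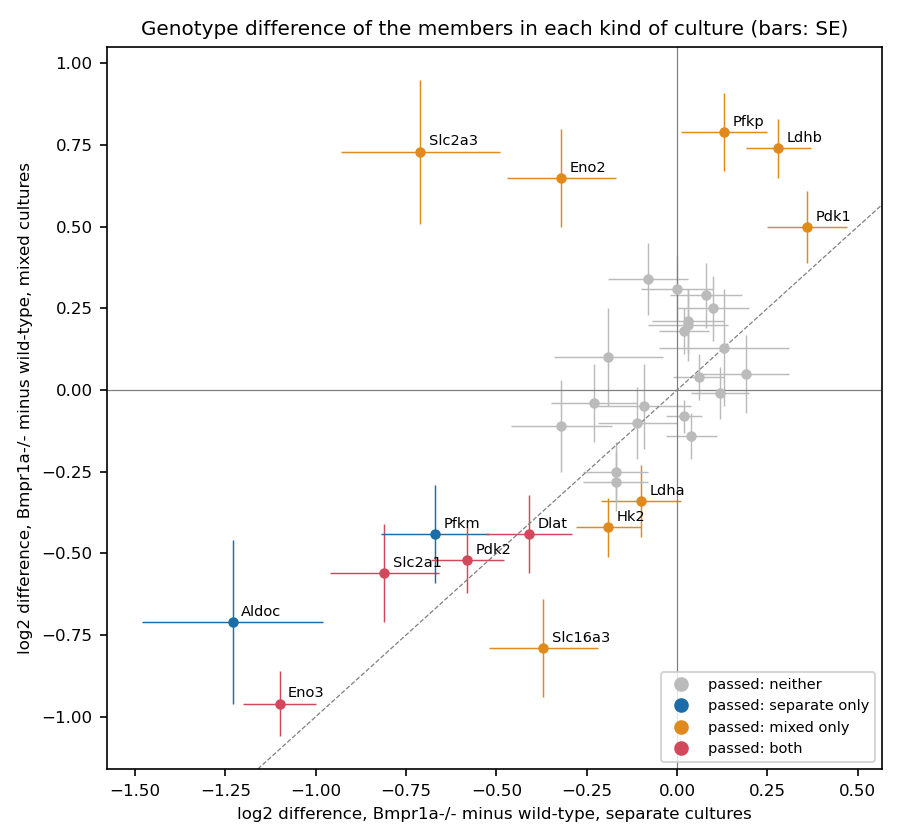
Genotype difference (Bmpr1a-/- minus wild-type, log2) of each of the 34 genes in separate culture (horizontal) and in mixed culture (vertical), with bars for the SE and a dashed line where they would be equal. Slc2a3 (-0.71 and 0.73) and Eno2 (-0.32 and 0.65) lie in the upper left, and Slc2a1, Eno3, Dlat and Pdk2, called in both cultures, in the lower left.

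The 7 genes of the set that regulate glycolysis or are grouped as hypoxia-responsive did not pass in any comparison. Pfkfb3 and Pfkfb4 encode enzymes that set the level of fructose 2,6-bisphosphate, the activator of phosphofructokinase. They differed by 0.19 and 0.04 between genotypes in separate and by 0.05 and -0.14 in mixed culture (SE 0.07 to 0.12). Bnip3, a mitophagy receptor, gave 292 to 308 in mixed and 203 to 249 in separate Bmpr1a-/- cells. Its change with co-culture was 0.38 (SE 0.11, adjusted p = 0.1) in Bmpr1a-/- and 0.21 (SE 0.11, adjusted p = 1) in wild-type cells. Vegfa, the vascular growth factor, differed by 0.25 (SE 0.10, adjusted p = 0.1) between genotypes in mixed culture. The prolyl hydroxylase genes Egln1 and Egln3 differed by -0.28 (SE 0.09, adjusted p = 0.064) and 0.10 (SE 0.15, adjusted p = 0.76), and Ankrd37 by -0.01 (SE 0.08). For Egln1 the mixed Bmpr1a-/- arrays (145, 152 and 150) were below all others (157 to 214). Altogether 14 of the 34 genes passed in at least 1 of the 5 comparisons and 20 in none. This was a larger share than the 3746 of all 17624 genes (21.3%) that passed in at least 1.

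Separate Bmpr1a-/- replicate 2 lay below the mean of its group for 30 of the 34 genes, with a median deviation of -0.16, while the median over all genes was -0.02. Mixed Bmpr1a-/- replicate 2 lay below its group mean for 28 of the 34, with a median deviation of -0.05. On the 11 arrays other than the first named the median deviation of the 34 genes was between -0.06 and 0.09. Without that array the count in the genotype comparison of separate cultures was 5, and the rise of Pfkp and Eno2 with co-culture was 0.46 and 0.55 and did not pass (counted over all genes, 73 in place of 278 then passed in that comparison).

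**Figure D4:**
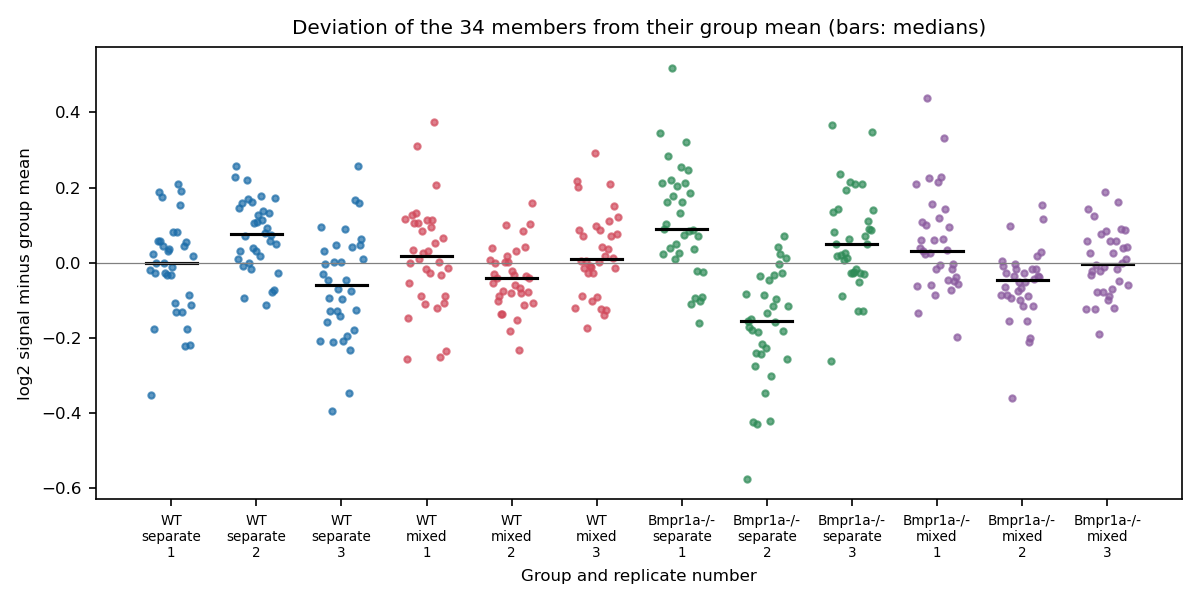
Deviation of each of the 34 genes from its group mean (log2) on each of the 12 arrays. Points are genes and bars medians, and separate Bmpr1a-/- replicate 2 has the lowest median (-0.16).

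Wider gene lists were read with the same fit. Of 24 other measured genes of the glycolytic steps (29 listed), 1 rose with co-culture in Bmpr1a-/- cells (4.17%, against 1.58% of all genes). It was Pfkfb2, which also makes fructose 2,6-bisphosphate. It rose by 0.50 (SE 0.10, adjusted p = 0.027), from 106 ± 4.67 (SD, n = 3) to 150 ± 21.9, and was 0.79 higher than in wild-type cells in mixed culture (SE 0.10, adjusted p = 0.00019). Pfkfb1 was lower in Bmpr1a-/- cells, with differences of -0.72 (SE 0.14, adjusted p = 0.0054) in separate culture and -0.65 (SE 0.14, adjusted p = 0.006) in mixed culture. The counts between genotypes were 1 higher and 3 lower in separate culture (16.7%, against 11.2% of all genes). In mixed culture they were 1 higher and 2 lower (12.5%, against 16.5%). In mixed culture Bpgm, which makes 2,3-bisphosphoglycerate, was also lower (-0.66, SE 0.12, adjusted p = 0.0024).

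Of 11 measured genes of pyruvate oxidation, 2 were higher and 3 lower in Bmpr1a-/- cells in mixed culture, and 1 was higher in separate culture (45.5% against 16.5% of all genes, and 9.09% against 11.2%). Pcx, pyruvate carboxylase, was higher in both, by 0.41 (SE 0.09, adjusted p = 0.015) and 0.61 (SE 0.09, adjusted p = 0.00083). Pdp1, a phosphatase that reverses the kinases' mark, was lower in mixed culture (-0.38, SE 0.07, adjusted p = 0.0027). Of 12 pentose phosphate genes 2 were higher and 2 lower in mixed culture, and 1 each in separate culture (33.3% and 16.7%). G6pdx, which opens that pathway, was higher by 0.57 (SE 0.07, adjusted p = 0.00044) in separate culture, with 1097 ± 22.4 against 740 ± 57.1 (n = 3 each). Of 7 gluconeogenesis genes, among them Pcx again, 1 was higher and 2 lower in separate and 2 higher and 1 lower in mixed culture (42.9% in each). With co-culture none of these 3 lists held a gene that passed in either genotype. Over all genes 1.58% passed in Bmpr1a-/- and 0% in wild-type cells, so lists this short would be expected to hold few or none.

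Of 10 measured genes of the oxygen-sensing machinery, 1 was higher in Bmpr1a-/- cells in separate culture, and 1 was higher and 1 lower in mixed culture. These shares (10% and 20%) were near those of all genes (11.2% and 16.5%). Hif1a was higher in separate Bmpr1a-/- cells, by 0.27 (SE 0.07, adjusted p = 0.022), from 618 ± 9.81 in wild-type to 746 ± 53.2 (n = 3 each). In mixed culture Epas1, which encodes HIF-2 alpha, was higher (0.39, SE 0.12, adjusted p = 0.04) and Arnt2, a partner of the HIF proteins, was lower (-0.33, SE 0.09, adjusted p = 0.023). HIF is controlled mainly as a protein, which the arrays do not measure. Of 45 other measured HIF target genes, 7 were higher and 5 lower in mixed culture (26.7%, against 16.5% of all genes). In separate culture 5 were higher and 3 lower (17.8%, against 11.2%). Ndrg1, a stress-responsive gene, was higher in both, by 0.57 (SE 0.10, adjusted p = 0.0036) and 0.96 (SE 0.10, adjusted p = 6.2e-05). Hmox1, heme oxygenase 1, was higher by 0.52 (SE 0.08, adjusted p = 0.002) and 0.74 (SE 0.08, adjusted p = 0.0001). Flt1, a receptor for vascular growth factors, was lower in mixed culture (-0.77, SE 0.12, adjusted p = 0.00071). With co-culture in Bmpr1a-/- cells 0 of these 45 genes rose and 2 fell (4.44%, against 1.58% of all genes). They were Cdkn1a, a cell cycle inhibitor (-0.62, SE 0.11, adjusted p = 0.016), and Gbe1, the glycogen branching enzyme (-0.51, SE 0.10, adjusted p = 0.032). For Gbe1 the co-culture changes of the genotypes also differed (-0.74, SE 0.15, adjusted p = 0.042). The median change of the 45 genes with co-culture was 0.02 in Bmpr1a-/- cells.

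Among 16 measured regulators, Myc and Esrrb changed with co-culture in Bmpr1a-/- cells (12.5%, against 1.58% of all genes). Both are transcription factors known to act on metabolic genes. Myc fell by 1.13 (SE 0.15, adjusted p = 0.0049) and Esrrb rose by 0.73 (SE 0.15, adjusted p = 0.031). The fall of Myc was from 201 ± 53.1 to 90.7 ± 10.3 (SD, n = 3). Wild-type cells gave 88 ± 9.15 in separate and 101 ± 7.5 in mixed culture, so the fall ended near the wild-type level. Esrrb was 1.98 higher in mixed Bmpr1a-/- than in mixed wild-type cells (SE 0.15, adjusted p = 5.6e-06). Txnip, which restrains glucose uptake, was lower in separate Bmpr1a-/- cells (-0.94, SE 0.14, adjusted p = 0.0016), with a signal of 200 ± 17.3 against 391 ± 101 (n = 3 each). Its difference in the co-culture changes was 0.67 (SE 0.20, adjusted p = 0.19). Between genotypes 3 of the 16 were higher and 3 lower in separate culture (37.5%, against 11.2% of all genes). In mixed culture 2 were higher and 1 lower (18.8%, against 16.5%). The list includes Bmpr1a itself.

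Markers of other cell types were read as summed signal, in which the brightest genes of a list weigh most. The sum of 7 trophoblast genes was 433 to 615 in Bmpr1a-/- and 337 to 358 in wild-type cells. Of these, Cdx2 and Elf5 were dim and alike in all groups (means 33 to 35.8 and 32 to 33.3). Tfap2c had means of 98.1 and 126 in separate and mixed Bmpr1a-/- against 58.8 and 52.5 in wild-type cells. Eomes was high in separate Bmpr1a-/- cells only (153 ± 58.3, SD). For 7 fibroblast genes the sum was 429 to 540 in Bmpr1a-/- and 569 to 680 in wild-type cells. For 9 genes of extraembryonic endoderm it was 456 to 511 and 516 to 604. For 6 neural progenitor genes it was 739 to 850 and 811 to 1065, which overlap. Most genes of each list did not pass between genotypes. In separate and in mixed culture 42.9% and 28.6% of the trophoblast genes passed, 28.6% and 14.3% of the fibroblast, 22.2% and 33.3% of the endoderm and 16.7% in each of the neural genes, against 11.2% and 16.5% of all genes. The endoderm genes that passed in mixed culture were 1 higher and 2 lower, and the part of these genes in the differences above was not tested. Of 10 genes that respond to dissociation and sorting 0 passed with co-culture in either genotype (limma, and 0 at an unadjusted p under 0.05). Over all genes 1.58% passed in Bmpr1a-/- and 0% in wild-type cells (14.9% and 2.93% unadjusted), so 10 genes say little. Their median change was -0.12 in Bmpr1a-/- and -0.08 in wild-type cells, against -0.02 and -0.01 for all genes. Between genotypes 2 were higher in separate culture (20%, against 11.2%) and 0 passed in mixed culture. Their summed signal was 1363 to 1594 in mixed and 1526 to 1915 in separate Bmpr1a-/- cells. In wild-type cells it was 1124 to 1600 and 1250 to 2014.

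The genes whose values followed those of Eno2 and Pfkp most closely over the 12 arrays were looked up among all genes tested. For Eno2 these included Pgf, Neu1, Mroh1 and Idua, with Pearson's r of 0.96 to 0.98. For Pfkp they were Treml2, Klhl24, Tex14, Cldn4 and Gstt2, with r of 0.95 to 0.98. The 12 points share 4 groups, so these values describe a common pattern over groups.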

How the data were processed

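Per the submitters' processing notes, the authors used RMA (Affymetrix Expression Console 1.2). Per the file headers, probe sets were summarised at the core transcript level, quantile normalized and centred on the median of the authors' samples, and 1 array of another day was left out. The deposited series table holds log2 signal centred per probe set, and a deposited workbook holds linear intensity values. After log2, each probe set of the workbook equalled the series table plus a constant (largest spread 2.18e-06), so levels were taken from the workbook. The design had assumed a series table with levels.

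Of 28815 probe sets, 22700 had 1 gene symbol, 2478 several and 3637 none. Dim probe sets (mean signal below the 20th percentile, 25.3) were left out, and the brightest per gene was kept. The fit of 4 group means used limma 3.58.1 (R 4.3.3) on all 12 arrays together (8 residual degrees of freedom), with eBayes, 5 contrasts and two-sided Benjamini-Hochberg adjusted p-values, and tested on simulated data. The 34 genes and the lists were chosen with earlier results of these data known. Values are given by array for genes that passed in any contrast and for the 2 smallest p-values where none passed. Of each list the 3 smallest p-values per contrast could be named, beside Bmpr1a, Pou5f1, Sox2, Dppa5a and Tdgf1. Depth does not apply to arrays, and 3 per group limit the precision.

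Per the file headers, replicates are numbered by experiment. Same-numbered arrays deviated together from their group means in mixed and separate Bmpr1a-/- cells (r = 0.39, 0.15 and 0.37) and in the mixed groups (0.64, 0.38 and 0.42), so the numbers were taken to pair these samples. In wild-type cells (0.57, -0.10 and 0.14) and in the separate groups (0.06, 0.05 and 0.34) the numbers did not pair every replicate. In all, 20 other settings were tried. A gene of the likeness search is not reported here.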

Additional observations from a re-analysis of the deposited data

Results flagged for a closer look

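The co-culture changes of Slc2a3, the high-affinity glucose transporter gene, had opposite signs in the genotypes, with non-overlapping arrays in each: 0.79 in Bmpr1a-/- and -0.65 in wild-type cells. The test of the difference itself gave 1.44 (SE 0.30, adjusted p = 0.053 in limma), just short of the threshold. With the replicate as a block, or without separate Bmpr1a-/- replicate 3, Slc2a3 was past it. The difference rests on all 12 arrays, and no explanation of it was tested.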

How the results depend on the processing

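The 20 settings were 8 changes of method and 12 that left out 1 array, and none reversed a direction. For co-culture in Bmpr1a-/- cells the count of 2 became 0 with no filter on low signal and 0 in a fit to only the groups compared, and 0 to 3 when an array was left out. For the difference between co-culture changes the count of 0 became 1 with quantile normalization repeated (Ldhb), and 0 to 1 with an array left out. For the genotypes in mixed culture the count of 12 became 19 with array weights, and 8 to 16 with an array left out. With the replicate block the counts were 5, 2 (Slc2a3 and Eno2) and 19 for these comparisons, 9 in place of 6 for the genotypes in separate culture (with Slc2a3, Ldhb and Pdk1 added) and 0 for co-culture in wild-type cells. In separate culture the count was 5 to 8 with an array left out. Calls kept under all 20 settings were those of Slc2a1, Pfkm, Aldoc, Eno3 and Pdk2 in separate culture, and of Hk2, Pfkp, Eno3, Ldhb, Slc16a3, Pdk1 and Pdk2 in mixed culture. The cause of the other changes was not tested.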
